A study of Mus musculus with 6 samples.

Results

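Collagens other than type IV, together with the enzymes and helpers that modify, process and crosslink collagen, were examined in an immortalized mouse podocyte line after knockdown of the transcription factor Tfeb. The set held 52 of the 53715 genes in the table: every protein-coding gene named as a collagen chain except the type IV chains (38 genes) and 14 named enzymes and helpers. The 14 were the lysyl oxidases Lox and Loxl1 to Loxl4, the prolyl 4-hydroxylase subunits P4ha1, P4ha2 and P4ha3, the lysyl hydroxylases Plod1, Plod2 and Plod3, the chaperone Serpinh1, and the propeptide-processing genes Bmp1 and Pcolce. Levels are in FPKM, a read count divided by the length of the gene and the depth of its library. Of the 52 genes, 25 averaged at least 1 FPKM across both groups, 12 chains and 13 enzymes or helpers, and these were tested.

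RNA was sequenced from 3 libraries of cells given an siRNA against Tfeb, with the genotype label TFEB knockdown, and 3 libraries of cells given a scrambled siRNA, with the genotype label WT. All 6 came from the same immortalized podocyte line, proliferated at 33 °C with interferon gamma and 10% serum, then held at 37 °C with 5% serum and type I collagen at 12 mg/ml for 10 to 14 days. No source used here gives the siRNA sequence. Nor do the labels say that replicates were separate cultures, and p-values may thus reflect technical spread alone.

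Collagen chains are hydroxylated on proline and lysine in the endoplasmic reticulum (ER), folded into triple helices with the help of the chaperone HSP47 (Serpinh1), and exported as procollagen. Outside the cell, proteinases such as BMP1 remove the propeptides, and lysyl oxidases turn lysine side chains into crosslinks that stiffen the fibrils. In the glomerulus, podocytes are known chiefly for making the type IV collagen of the basement membrane, and fibrous collagens accumulate there in scarring. TFEB is a basic helix-loop-helix transcription factor known for switching on lysosome and autophagy genes through the CLEAR element, whose core is CACGTG.

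Tfeb had 0.639, 0.714 and 0.822 FPKM in the Tfeb siRNA libraries, against 1.80, 2.05 and 2.27 FPKM in the scrambled siRNA libraries, a mean of 35.5% of the scrambled level. Depth was 18062898 to 20010130 derived reads with Tfeb siRNA and 20143910 to 20610888 with scrambled siRNA. Mitochondrial genes took 1.44% to 1.57% of reads with Tfeb siRNA and 1.36% to 1.43% with scrambled siRNA. Principal component 1 (53% of the variance) split the libraries by siRNA, and component 2 (19.3%) set replicate 1 of both groups apart. Of the podocyte markers, Synpo had 46.2 to 49.7 FPKM with Tfeb siRNA and 68.6 to 79.1 FPKM with scrambled siRNA, and Podxl had 14.2 to 16.9 FPKM with Tfeb siRNA and 8.39 to 8.99 FPKM with scrambled siRNA. The defining markers Nphs1, Wt1 and Ptpro stayed below 0.6 FPKM in every library. Nphs1 had 0.0469 to 0.0895 FPKM with Tfeb siRNA and 0.197 to 0.268 FPKM with scrambled siRNA, while Wt1 overlapped between the groups. Fibroblast markers (7 genes) summed to 2.42 to 2.89 FPKM with Tfeb siRNA and 2.18 to 3.83 FPKM with scrambled siRNA. Only Dcn of these 7 had a mean above 1 FPKM, and Pdgfra stayed below 0.1 FPKM. Macrophage markers (5 genes) summed to 6.96 to 8.78 FPKM with Tfeb siRNA and 10.0 to 11.5 FPKM with scrambled siRNA, with Ptprc and Adgre1 below 0.04. Within that list, Csf1r had 2.08 to 2.32 FPKM with Tfeb siRNA and 4.09 to 4.39 FPKM with scrambled siRNA. Lyz2 averaged 1.26 FPKM with Tfeb siRNA and 0.742 FPKM with scrambled siRNA, with overlapping libraries. Mural markers (6 genes, nearly all of it Pdgfrb) summed to 30.9 to 33.4 FPKM with Tfeb siRNA and 32.4 to 34.9 FPKM with scrambled siRNA. Of these, Des had 0.408 to 0.552 FPKM with Tfeb siRNA and 1.275 to 1.656 FPKM with scrambled siRNA, while Pdgfrb overlapped between the groups. Tubular markers (5 genes, nearly all of it Lrp2, with Umod at 0) summed to 42.6 to 49.2 FPKM with Tfeb siRNA and 46.4 to 56.6 FPKM with scrambled siRNA. Endothelial markers (5 genes, Emcn at 0) stayed below 0.6 FPKM in sum. Several markers moved with the groups, among them Synpo, Podxl, Nphs1, Des and the macrophage sum. Their part in the results on collagen genes was not tested.

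Promoter windows of 250 bases before to 50 bases after the annotated start (RefSeq, GRCm38.p6) were matched for 38 of the 52 genes by symbol, 15 of them among the 25 tested. Letters were searched on both strands. CACGTG was in 0 of the 38 windows and in 8.09% of the 27025 genes with a window. The GC box GGGCGG was in 25 of the 38 and in 38.2% of all genes, and TATAAA was in 7 of the 38 and in 15.7% of all genes. A match or its lack describes these letters in these windows only. The windows of 2 genes that rose and 2 that fell after Tfeb siRNA are given as the stretch in which CACGTG was looked for, with each GC box in capitals (CCGCCC where it lies on the other strand).
Col7a1, GRCm38.p6, chr9:108953336-108953635, plus strand: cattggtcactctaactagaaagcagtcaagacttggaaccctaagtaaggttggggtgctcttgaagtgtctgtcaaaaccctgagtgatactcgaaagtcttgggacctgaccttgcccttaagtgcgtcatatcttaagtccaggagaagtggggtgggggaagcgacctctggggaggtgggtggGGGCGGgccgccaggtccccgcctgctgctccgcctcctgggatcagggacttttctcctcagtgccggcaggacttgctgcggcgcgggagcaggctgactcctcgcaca
Plod1, GRCm38.p6, chr4:147936727-147937026, minus strand: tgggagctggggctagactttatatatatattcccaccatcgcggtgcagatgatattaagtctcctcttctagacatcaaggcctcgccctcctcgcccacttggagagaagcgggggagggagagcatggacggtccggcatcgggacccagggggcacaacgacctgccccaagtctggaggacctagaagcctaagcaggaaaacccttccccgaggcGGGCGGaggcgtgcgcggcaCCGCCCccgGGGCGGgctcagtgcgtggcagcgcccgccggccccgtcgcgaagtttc
Loxl4, GRCm38.p6, chr19:42612757-42613056, minus strand: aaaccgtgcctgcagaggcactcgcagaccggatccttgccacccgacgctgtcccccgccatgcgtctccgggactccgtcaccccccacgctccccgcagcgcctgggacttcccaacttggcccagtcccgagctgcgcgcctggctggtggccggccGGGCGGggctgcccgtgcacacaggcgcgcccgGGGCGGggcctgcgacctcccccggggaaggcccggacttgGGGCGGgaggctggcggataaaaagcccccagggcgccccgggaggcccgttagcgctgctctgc
Col16a1, GRCm38.p6, chr4:130047590-130047889, plus strand: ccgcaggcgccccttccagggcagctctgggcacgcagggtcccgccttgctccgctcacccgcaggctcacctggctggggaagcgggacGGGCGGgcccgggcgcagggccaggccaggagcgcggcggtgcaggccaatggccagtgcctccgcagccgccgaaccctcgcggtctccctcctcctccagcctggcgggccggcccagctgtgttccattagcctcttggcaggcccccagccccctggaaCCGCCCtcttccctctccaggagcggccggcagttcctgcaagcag
The Col7a1 window held 1 GC box, those of Plod1 and Loxl4 held 3 each and that of Col16a1 held 2. The 4 windows differed in base composition, with 58.7% G or C for Col7a1, 64.3% for Plod1, 75% for Loxl4 and 74.3% for Col16a1. A GC box was in the windows of 12 of the 15 tested genes. Its presence in these 4 thus does not tell genes that rose from genes that fell.

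By level, a handful of chains made up nearly all collagen mRNA of the set. Col5a2, a chain of the fibril-nucleating type V collagen, took 36.8% to 41.1% of the summed FPKM of the 38 chains over the 6 libraries. Col18a1, the heparan sulfate-bearing collagen of basement membranes, took 19.7% to 24.8%, Col8a1, a network-forming chain of subendothelial matrix, 19.2% to 23.3%, and Col5a1, the partner of Col5a2, 7.9% to 9.1%. The sum over all 38 chains was 428, 420 and 462 FPKM with Tfeb siRNA and 396, 431 and 411 FPKM with scrambled siRNA, and the groups overlapped.

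**Figure D1:**
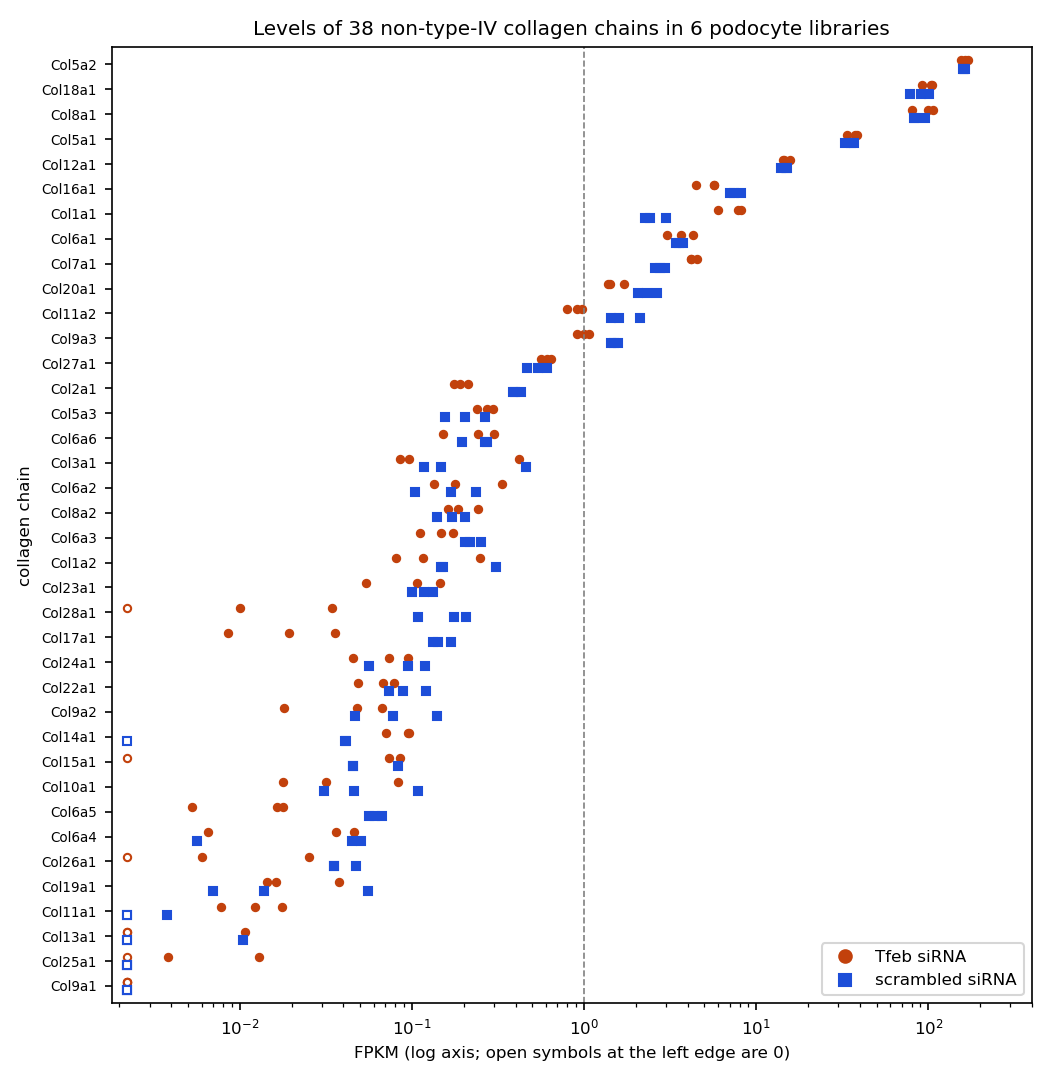
FPKM of each of the 38 chains in each library on a log axis, with Tfeb siRNA libraries as circles and scrambled siRNA libraries as squares; open symbols at the left edge are 0 and the dashed line is 1 FPKM. Col5a2, Col18a1 and Col8a1 stand near 100 FPKM or above in both groups, and 26 chains lie left of the line by their mean.

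Of the 25 tested genes, 5 rose and 7 fell after Tfeb siRNA (limma on log2(FPKM + 0.5), adjusted p below 0.05 over all 12257 tested genes). The 12 called are 48.0% of the 25, where 33.3% of all tested genes were called (16.9% higher and 16.4% lower). The median log2 fold change of the 25 was 0.03, and that of all tested genes 0.02. For 14 of the 25 genes the groups did not overlap (56.0%), against 48.7% of all tested genes. Those that rose were Col1a1, Loxl2, Col7a1, Loxl3 and Plod1. Those that fell were Col11a2, Lox, Loxl4, Col20a1, Col16a1, Col9a3 and Bmp1. Of these, Col11a2 and Col9a3 passed the filter of 1 FPKM only through their scrambled level. Both are in the counts and shares above, which are thus no independent support for a fall. The number that fell was 3 without scrambled siRNA replicate 3, 4 without Tfeb siRNA replicate 3 and 4 without replicate 1 of both groups. Col11a2, Col20a1, Col9a3 and Bmp1 are the genes whose calls depended on single libraries. In bulk RNA, fewer cells with a transcript and less of it per cell cannot be told apart.

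**Figure D2:**
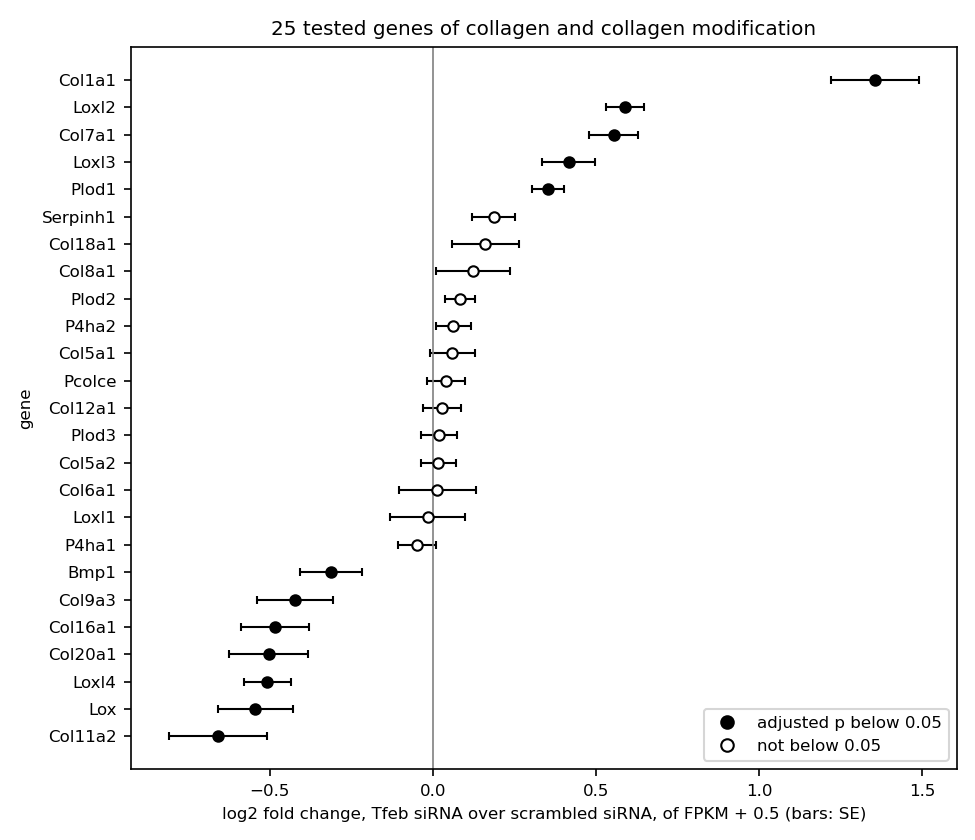
Log2 fold change of FPKM + 0.5, Tfeb siRNA over scrambled siRNA, for the 25 tested genes, with the SE as bars and genes at an adjusted p below 0.05 filled. Col1a1 lies apart at 1.36; 13 genes, among them the most abundant chains, were not called.

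Among the fibrillar chains, Col1a1 rose and Col11a2 fell, while the abundant type V pair was not called. Col1a1, the main chain of type I collagen, had 6.01, 8.13 and 7.80 FPKM with Tfeb siRNA, against 2.25, 2.41 and 2.97 FPKM with scrambled siRNA. The lowest Tfeb siRNA library was above the highest scrambled one, the mean was 2.88-fold higher, and the log2 fold change was 1.36 (SE 0.14, adjusted p = 0.000793). Col1a1 still made up only 1.41% to 1.94% of the summed chain FPKM with Tfeb siRNA and 0.559% to 0.723% with scrambled siRNA. Its partner chain Col1a2, with which it normally forms a heterotrimer, was below the filter and had 18, 29 and 60 reads with Tfeb siRNA and 38, 39 and 80 reads with scrambled siRNA. Per length, Col1a1 stood 31.2 to 74.4 times above Col1a2 with Tfeb siRNA and 9.66 to 15.9 times with scrambled siRNA, a description of levels with few Col1a2 reads behind it. These ratios also depend on the lengths used, 6563 bases for Col1a1 and 12426 bases for Col1a2. Such lengths cover all annotated exons and need not be those of the transcripts in these cells.

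Col11a2, a chain of the minor fibrillar type XI collagen of cartilage, had 0.792, 0.976 and 0.909 FPKM with Tfeb siRNA, against 1.59, 1.44 and 2.11 FPKM with scrambled siRNA. All Tfeb siRNA libraries were below all scrambled ones (log2 fold change -0.66, SE 0.15, adjusted p = 0.0153). Leaving out scrambled siRNA replicate 3 gave an adjusted p of 0.0511. Its Tfeb siRNA mean was below 1 FPKM, so it was tested only through its scrambled level. Col5a2 had 162, 155 and 171 FPKM with Tfeb siRNA and 163, 161 and 158 FPKM with scrambled siRNA. The groups overlapped, and the 95% interval of its log2 fold change ran from -0.11 to 0.15. Col5a1 was not called either (interval -0.10 to 0.22). Col5a1 over Col5a2 was 0.209 to 0.248 with Tfeb siRNA and 0.203 to 0.233 with scrambled siRNA (difference in mean log2 ratio 0.04, exact two-sided permutation p = 0.6).

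Of the 4 tested fibril-associated chains, which lie on the surface of fibrils, 3 fell and 1 was not called, where 16.4% of all tested genes fell. The calls of Col20a1 and Col9a3 depended on single libraries, and Col9a3 passed the filter only through its scrambled level. Col16a1 had 4.45, 5.68 and 5.67 FPKM with Tfeb siRNA, against 7.02, 7.39 and 8.20 FPKM with scrambled siRNA. Every Tfeb siRNA library was below every scrambled one (log2 fold change -0.48, SE 0.11, adjusted p = 0.0128). This call held without any single library. Col20a1, a fibril-associated chain, had 1.42, 1.70 and 1.37 FPKM with Tfeb siRNA, against 2.64, 2.05 and 2.31 FPKM with scrambled siRNA. Both groups kept apart (log2 fold change -0.50, SE 0.12, adjusted p = 0.0184). Its call was lost at an adjusted p of 0.0520 or 0.0570 without Tfeb siRNA replicate 1 or 3, and of 0.0553 or 0.0560 without scrambled siRNA replicate 1 or 3.

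Col9a3, a chain of type IX collagen that coats type II fibrils in cartilage, had 1.07, 0.9997 and 0.913 FPKM with Tfeb siRNA, against 1.58, 1.49 and 1.43 FPKM with scrambled siRNA. The groups did not overlap (log2 fold change -0.42, SE 0.12, adjusted p = 0.0293), but the Tfeb siRNA mean was just below the filter of 1 FPKM. The adjusted p was 0.0687 to 0.0858 without any 1 of Tfeb siRNA replicates 2 and 3 and scrambled siRNA replicates 1, 2 and 3. Exons of Col9a3 overlap the oppositely oriented gene Tcfl5 over 6.07% of their bases, and Tcfl5 itself had only 3 reads with Tfeb siRNA and 8 with scrambled siRNA. Col12a1, the most abundant of this class, was not called, with an interval of -0.11 to 0.17 on the log2 scale. Summed over all 9 chains of the class, tested or not, the level was 22.9, 23.1 and 22.6 FPKM with Tfeb siRNA and 26.6, 24.98 and 27.0 FPKM with scrambled siRNA, without overlap, as was so for 48.7% of single tested genes.

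Col7a1 forms the anchoring fibrils that tie epithelial basement membranes to the matrix below. It had 4.18, 4.503 and 4.18 FPKM with Tfeb siRNA, against 2.75, 2.59 and 2.94 FPKM with scrambled siRNA. The groups did not overlap and the spread within each was small (log2 fold change 0.56, SE 0.08, adjusted p = 0.00211). The call held without any single library.

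The basement membrane chain Col18a1 and the network-forming chain Col8a1 were abundant and were not called. The other chains of their classes, Col15a1, Col8a2 and Col10a1, were below the filter. Col18a1 had 92.1, 104 and 104 FPKM with Tfeb siRNA and 77.9, 101 and 90.1 FPKM with scrambled siRNA, and scrambled replicate 2 lay within the Tfeb siRNA range. Col8a1 had 99.5, 80.6 and 107 FPKM with Tfeb siRNA and 82.8, 95.7 and 83.2 FPKM with scrambled siRNA, with overlapping groups. The intervals of the log2 fold change, -0.08 to 0.40 for Col18a1 and -0.14 to 0.39 for Col8a1, do not show that these chains were equal in the groups. Col6a1, the only beaded-filament chain tested, had 3.67, 3.02 and 4.30 FPKM with Tfeb siRNA and 3.57, 3.42 and 3.78 FPKM with scrambled siRNA, with overlapping groups. Its partners in the type VI trimer were scarce, and Col6a1 stood 12.8 to 27.4 times above Col6a2 per length with Tfeb siRNA and 16.0 to 34.4 times with scrambled siRNA. These ratios depend on the annotated lengths, 4380 bases for Col6a1 and 8326 bases for Col6a2.

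**Figure D3:**
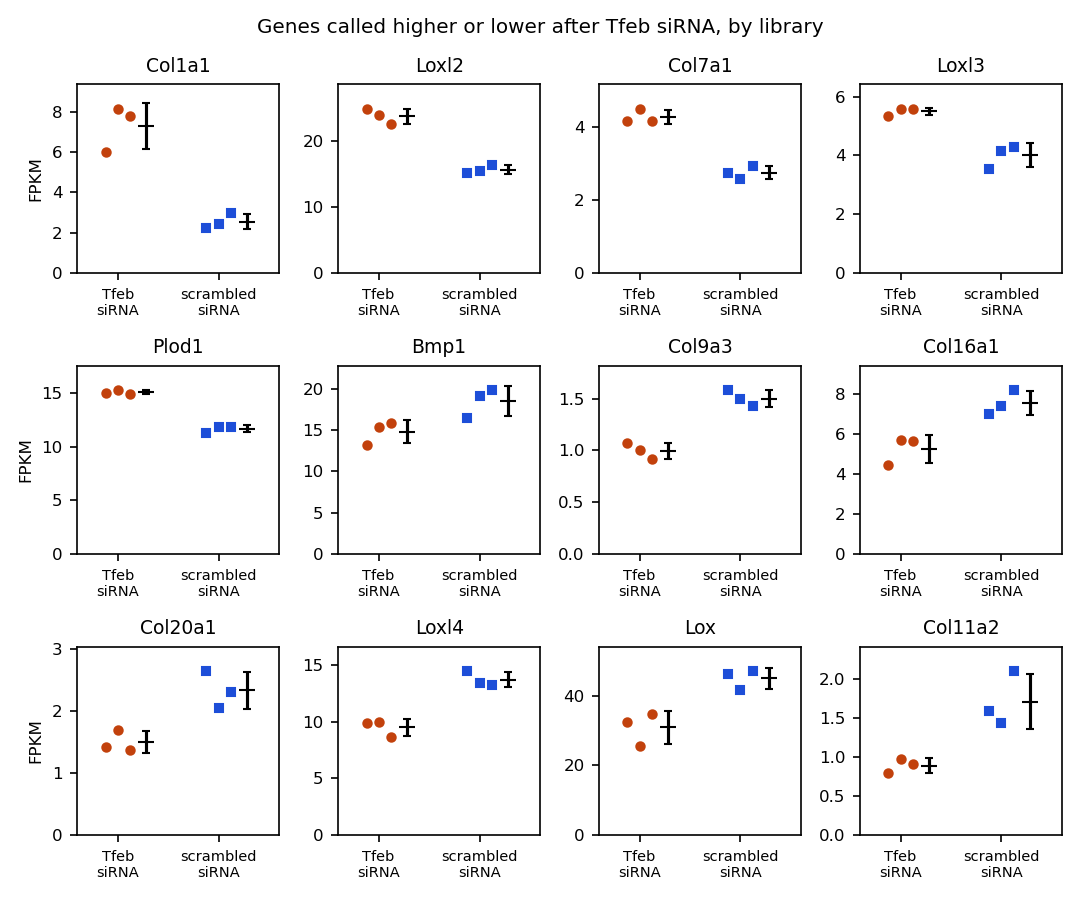
FPKM in each library for the 12 genes called higher or lower, with each panel's axis starting at 0; points are libraries in the order of their replicate numbers, and bars give the mean and SD (n = 3). In all 12 panels the Tfeb siRNA points and the scrambled siRNA points do not overlap, as for 48.7% of all tested genes. The 12 were chosen by adjusted p in these same libraries, so the separation is no further support. Col1a1 has the widest gap on the log2 scale.

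In the ER, neither the prolyl 4-hydroxylase subunits nor the collagen chaperone were called, and 1 of 3 lysyl hydroxylases rose. Serpinh1, the most abundant gene of the set, had 698, 715 and 769 FPKM with Tfeb siRNA, against 611, 660 and 646 FPKM with scrambled siRNA. The groups did not overlap, but the log2 fold change of 0.19 (SE 0.07) missed the threshold at an adjusted p of 0.0692. With the replicate number as a block, where 40.2% of all tested genes were called, its limma adjusted p was 0.0407. With 75th percentile scaling it was 0.0458. Other alternatives moved it away from the threshold, to 0.380 without the filter and to 0.0961 to 0.171 leaving out 1 library. P4ha1, the main catalytic subunit of prolyl hydroxylation here, had 132, 127 and 138 FPKM with Tfeb siRNA and 137, 143 and 131 FPKM with scrambled siRNA, with overlapping groups (95% interval -0.18 to 0.09). P4ha2 was far less abundant per length, and P4ha2 over P4ha1 was 0.0919 to 0.0961 with Tfeb siRNA and 0.0811 to 0.0914 with scrambled siRNA. That difference of 0.11 in the mean log2 ratio had an exact two-sided permutation p of 0.1, the smallest that 3 against 3 libraries can give.

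Plod1, which hydroxylates lysines of the triple helix, had 15.04, 15.3 and 14.9 FPKM with Tfeb siRNA, against 11.3, 11.9 and 11.9 FPKM with scrambled siRNA. The groups were tight and did not overlap (log2 fold change 0.35, SE 0.05, adjusted p = 0.0022), a call that held in all 15 alternatives. Plod2, the hydroxylase of the telopeptides, had 57.5 to 60.6 FPKM with Tfeb siRNA and 55.3 to 56.6 FPKM with scrambled siRNA and was not called (interval -0.03 to 0.19), and 6.42% of its exonic bases overlap Gm38391, a gene model on the other strand. Its groups did not overlap, as for 48.7% of all tested genes. Plod2 over Plod1 was 4.03, 3.75 and 3.99 with Tfeb siRNA, against 5.00, 4.65 and 4.67 with scrambled siRNA. The ratio was lower in all 3 Tfeb siRNA libraries by 0.27 in the mean log2 ratio (exact two-sided permutation p = 0.1, the smallest possible). Plod3, which can also glycosylate collagen, was not called (interval -0.11 to 0.15), and 11.9% of its exonic bases overlap Znhit1 and a microRNA gene, on either strand.

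Outside the cell, the crosslinking enzymes shifted in opposite directions: of 5 lysyl oxidases, Loxl2 and Loxl3 rose, Lox and Loxl4 fell, and Loxl1 was not called, where 33.3% of all tested genes were called. Loxl2, known for oxidizing the type IV collagen of basement membranes, had 24.9, 23.9 and 22.6 FPKM with Tfeb siRNA, against 15.1, 15.4 and 16.4 FPKM with scrambled siRNA. All Tfeb siRNA libraries were above all scrambled ones (log2 fold change 0.59, SE 0.06, adjusted p = 0.000791). Of the words of 50 bases in Loxl2 transcripts, 45% also occur in the unprocessed pseudogene Gm21451, which had 6 reads with Tfeb siRNA and 2 with scrambled siRNA, so both the level and the change of Loxl2 are uncertain as far as the counting could split such reads. Loxl3 had 5.35, 5.58 and 5.57 FPKM with Tfeb siRNA, against 3.55, 4.17 and 4.30 FPKM with scrambled siRNA. Again no library overlapped (log2 fold change 0.42, SE 0.08, adjusted p = 0.00832). Exons of Loxl3 overlap Htra2 on the other strand over 11.6% of their bases, and whether the counting used strand is not given in the sources used here. Htra2 itself averaged 13.7 FPKM with Tfeb siRNA and 12.2 FPKM with scrambled siRNA (adjusted p = 0.186).

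Lox, the founding member of the family and an oxidase of fibrillar collagen and elastin, had 32.4, 25.6 and 34.8 FPKM with Tfeb siRNA, against 46.3, 41.6 and 47.1 FPKM with scrambled siRNA. The highest Tfeb siRNA library was below the lowest scrambled one (log2 fold change -0.54, SE 0.12, adjusted p = 0.0117). Loxl4 had 9.91, 10.0 and 8.67 FPKM with Tfeb siRNA, against 14.5, 13.5 and 13.3 FPKM with scrambled siRNA. Again the groups did not overlap (log2 fold change -0.51, SE 0.07, adjusted p = 0.00253). Loxl1, the family member tied to elastic fibres and the most abundant of the 5, had 48.6 to 61.2 FPKM with Tfeb siRNA and 48.1 to 61.3 FPKM with scrambled siRNA (interval of the log2 fold change -0.29 to 0.26). The 5 enzymes summed to 121, 121 and 133 FPKM with Tfeb siRNA and 128, 133 and 142 FPKM with scrambled siRNA, and the groups overlapped. Loxl2 over Lox was 0.767, 0.934 and 0.648 with Tfeb siRNA, against 0.326, 0.370 and 0.348 with scrambled siRNA. The ratio was higher in every Tfeb siRNA library, by 1.13 in the mean log2 ratio (exact two-sided permutation p = 0.1, the smallest possible). Since Loxl2 was higher and Lox lower without overlap, the ratio had to separate the groups. This p-value was thus fixed by the 2 single-gene results and adds no support to them.

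**Figure D4:**
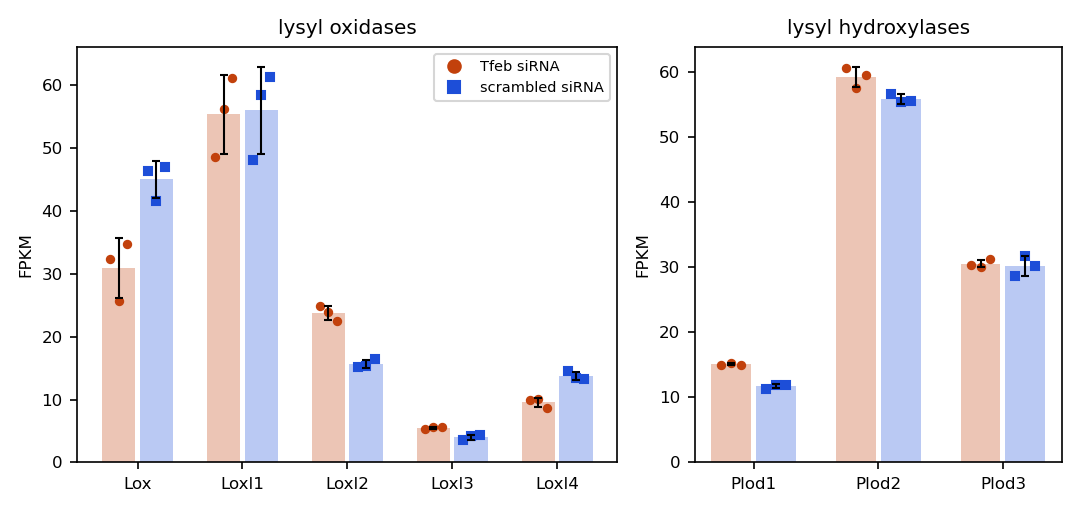
FPKM of the 5 lysyl oxidases and the 3 lysyl hydroxylases, with bars at the mean from 0, error bars of 1 SD (n = 3 each) and a point for each library, Tfeb siRNA left of scrambled siRNA. Lox and Loxl4 are lower and Loxl2, Loxl3 and Plod1 higher with Tfeb siRNA, while Loxl1 overlaps.

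Among the propeptide-processing genes, Bmp1, the procollagen C-proteinase, had 13.2, 15.4 and 15.8 FPKM with Tfeb siRNA, against 16.5, 19.2 and 19.9 FPKM with scrambled siRNA. The groups lay close to each other without overlap (log2 fold change -0.31, SE 0.09, adjusted p = 0.0413). The call was lost without any single Tfeb siRNA library (adjusted p 0.0537 to 0.103) and without scrambled siRNA replicate 2 or 3 (0.112 and 0.125), while with the replicate block the adjusted p was 0.0045. Pcolce, which enhances BMP1, had 75.3, 76.2 and 78.8 FPKM with Tfeb siRNA and 69.8, 78.6 and 75.5 FPKM with scrambled siRNA, with overlapping groups and an interval of -0.10 to 0.18.

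The 27 genes below the filter were P4ha3 and 26 chains. Just inside the filter lay Col9a3 and Col11a2, with means over the 6 libraries a little above 1 FPKM, and just outside lay Col27a1, with 0.606 ± 0.0378 FPKM with Tfeb siRNA and 0.539 ± 0.0708 FPKM with scrambled siRNA (SD, n = 3 each), and Col2a1. In a fit without the filter, in which 11.8% of 29171 genes were called, 3 of the 26 with any read fell. None rose by limma's adjusted p, and Col14a1 alone was higher at an unadjusted p under 0.05. Col9a1 had 0 reads in every library. Col17a1, the transmembrane collagen of hemidesmosomes, had 2, 1 and 4 reads with Tfeb siRNA, against 17, 20 and 16 reads with scrambled siRNA (limma adjusted p = 0.0139). Col28a1 had 3, 1 and 0 reads with Tfeb siRNA, against 18, 11 and 21 reads with scrambled siRNA (adjusted p = 0.026). Col2a1, the fibrillar chain of cartilage, had 35, 33 and 34 reads with Tfeb siRNA, against 83, 76 and 75 reads with scrambled siRNA (adjusted p = 0.0402). These 3 were picked by their adjusted p, and all stand at the low end of what the depth can measure.

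Other low chains rested on fewer reads or varied with the replicate number. Col6a5 had 7 reads in all with Tfeb siRNA and 36 with scrambled siRNA (adjusted p = 0.0709), and Col14a1 had 35 reads with Tfeb siRNA and 12 with scrambled siRNA (adjusted p = 0.121). Col3a1, the type III chain of loose connective tissue, had 17, 17 and 79 reads with Tfeb siRNA and 30, 24 and 95 reads with scrambled siRNA. Replicate 3 of each group was thus the highest for Col3a1, and it was also the highest for Col1a2. Col6a2 had 20, 30 and 54 reads with Tfeb siRNA and 18, 29 and 41 reads with scrambled siRNA, with replicate 3 highest in each group again. Why replicate 3 stood apart was not tested.

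Genes that act with these enzymes were counted in 6 lists of collagen biology, of which 49 of 77 listed genes were tested. Together 10 rose and 9 fell (38.8% called, against 33.3% of all tested genes). Of the 14 tested partners of folding and glycosylation, 5 rose and 1 fell (42.9% called, against 33.3% of all tested genes). P3h1, the prolyl 3-hydroxylase of fibrillar collagens, averaged 27.6 ± 1.81 FPKM with Tfeb siRNA and 16.4 ± 0.833 FPKM with scrambled siRNA (log2 fold change 0.73, limma adjusted p = 0.000599). Fkbp10, a collagen prolyl isomerase of the ER, averaged 55.2 ± 4.24 FPKM with Tfeb siRNA and 34.1 ± 5.45 FPKM with scrambled siRNA (0.70, adjusted p = 0.00561). Crtap, the partner of P3h1 in the 3-hydroxylation complex, Tmem38b, an ER cation channel, and Colgalt1, the galactosyltransferase of hydroxylysine, also rose, by log2 0.47, 0.46 and 0.39. Tmem38b lost its call without any single Tfeb siRNA library (adjusted p 0.0648 to 0.0728). P3h4, a non-catalytic partner of lysyl hydroxylation complexes, fell to 8.42 ± 0.883 FPKM with Tfeb siRNA, against 17.6 ± 1.28 FPKM with scrambled siRNA (log2 fold change -1.02, adjusted p = 0.000468). The median log2 fold change of the 14 was 0.06. P4hb, the shared beta subunit of prolyl 4-hydroxylase and disulfide isomerase, averaged 321 FPKM with Tfeb siRNA and 317 FPKM with scrambled siRNA and was not called.

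Of 16 tested genes of procollagen export from the ER, 5 fell and 1 rose (median log2 fold change -0.12). The share called, 37.5%, was near the 33.3% of all tested genes. Other genes of the COPII coat in the list, Sec23b (log2 fold change 0.15), Sec24b (0.01), Sec24c (-0.11) and Sec31a (-0.12), were not called. Sec24a, a cargo adaptor of the coat, averaged 4.39 ± 0.342 FPKM with Tfeb siRNA and 5.99 ± 0.151 FPKM with scrambled siRNA (log2 fold change -0.41, limma adjusted p = 0.00519). Sec13, of the outer coat, averaged 31.9 ± 0.79 FPKM with Tfeb siRNA and 41.5 ± 1.66 FPKM with scrambled siRNA (-0.37, adjusted p = 0.00221). Sec24d, Preb and Sec23a fell by 0.35, 0.29 and 0.26 on the log2 scale, and Sec23a was no longer called when Tfeb siRNA replicate 2 or 3 or scrambled siRNA replicate 1 or 3 was left out (adjusted p 0.0606 to 0.0779). Sar1a, the GTPase that starts coat assembly, rose by log2 0.23 (adjusted p = 0.0159), and was no longer called when Tfeb siRNA replicate 1 or 3 was left out (adjusted p 0.0504 and 0.0537). Mia3, the TANGO1 receptor that loads procollagen, averaged 17.6 FPKM with Tfeb siRNA and 17.4 FPKM with scrambled siRNA and was not called.

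Among genes that act on collagen outside the cell, Adamts2, a procollagen N-proteinase, was the only 1 of 3 tested propeptidases called. The share called was 33.3%, as over all tested genes. Adamts2 averaged 1.14 ± 0.0968 FPKM with Tfeb siRNA and 1.73 ± 0.0938 FPKM with scrambled siRNA (log2 fold change -0.44, limma adjusted p = 0.0202). Its call was lost without Tfeb siRNA replicate 1 or 2 or scrambled siRNA replicate 2 or 3 (adjusted p 0.0553 to 0.0704). Of 7 tested fibril-regulating proteoglycans and glycoproteins, Bgn (biglycan) and Prelp rose (28.6% called, against 33.3% of all tested genes). None fell by limma's adjusted p, nor at an unadjusted p under 0.05. Bgn averaged 2.91 ± 0.274 FPKM with Tfeb siRNA and 1.24 ± 0.249 FPKM with scrambled siRNA (0.98, adjusted p = 0.00224). Prelp averaged 1.41 ± 0.489 FPKM with Tfeb siRNA and 0.656 ± 0.0662 FPKM with scrambled siRNA (0.70, adjusted p = 0.0328). Its scrambled mean was below 1 FPKM, so Prelp was tested only through its Tfeb siRNA level. The Prelp call was lost without any 1 of Tfeb siRNA replicates 2 and 3 and all 3 scrambled siRNA replicates (adjusted p 0.0526 to 0.0777).

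Of 3 tested collagen receptors, Ddr1, a receptor tyrosine kinase that binds collagen, rose and Itgb1, the beta 1 integrin, fell. That is 66.7% called, against 33.3% of all tested genes. Ddr1 averaged 52.4 ± 2.6 FPKM with Tfeb siRNA and 34.1 ± 4.47 FPKM with scrambled siRNA (log2 fold change 0.62, limma adjusted p = 0.00401). Itgb1 averaged 966 ± 41.9 FPKM with Tfeb siRNA and 1145 ± 42.8 FPKM with scrambled siRNA (-0.24, adjusted p = 0.0295). The Itgb1 call was lost without any 1 Tfeb siRNA library or scrambled siRNA replicate 2 or 3 (adjusted p 0.0529 to 0.102). Of 6 tested collagen-degrading proteases, Mmp9, a gelatinase, rose and Pepd, the prolidase that splits proline dipeptides, fell. Here the share called was 33.3%, as over all tested genes. Mmp9 averaged 3.504 ± 0.595 FPKM with Tfeb siRNA and 1.59 ± 0.302 FPKM with scrambled siRNA (0.94, adjusted p = 0.00456). Pepd averaged 18.4 ± 1.04 FPKM with Tfeb siRNA and 27.2 ± 1.54 FPKM with scrambled siRNA (-0.55, adjusted p = 0.00134).

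**Figure D5:**
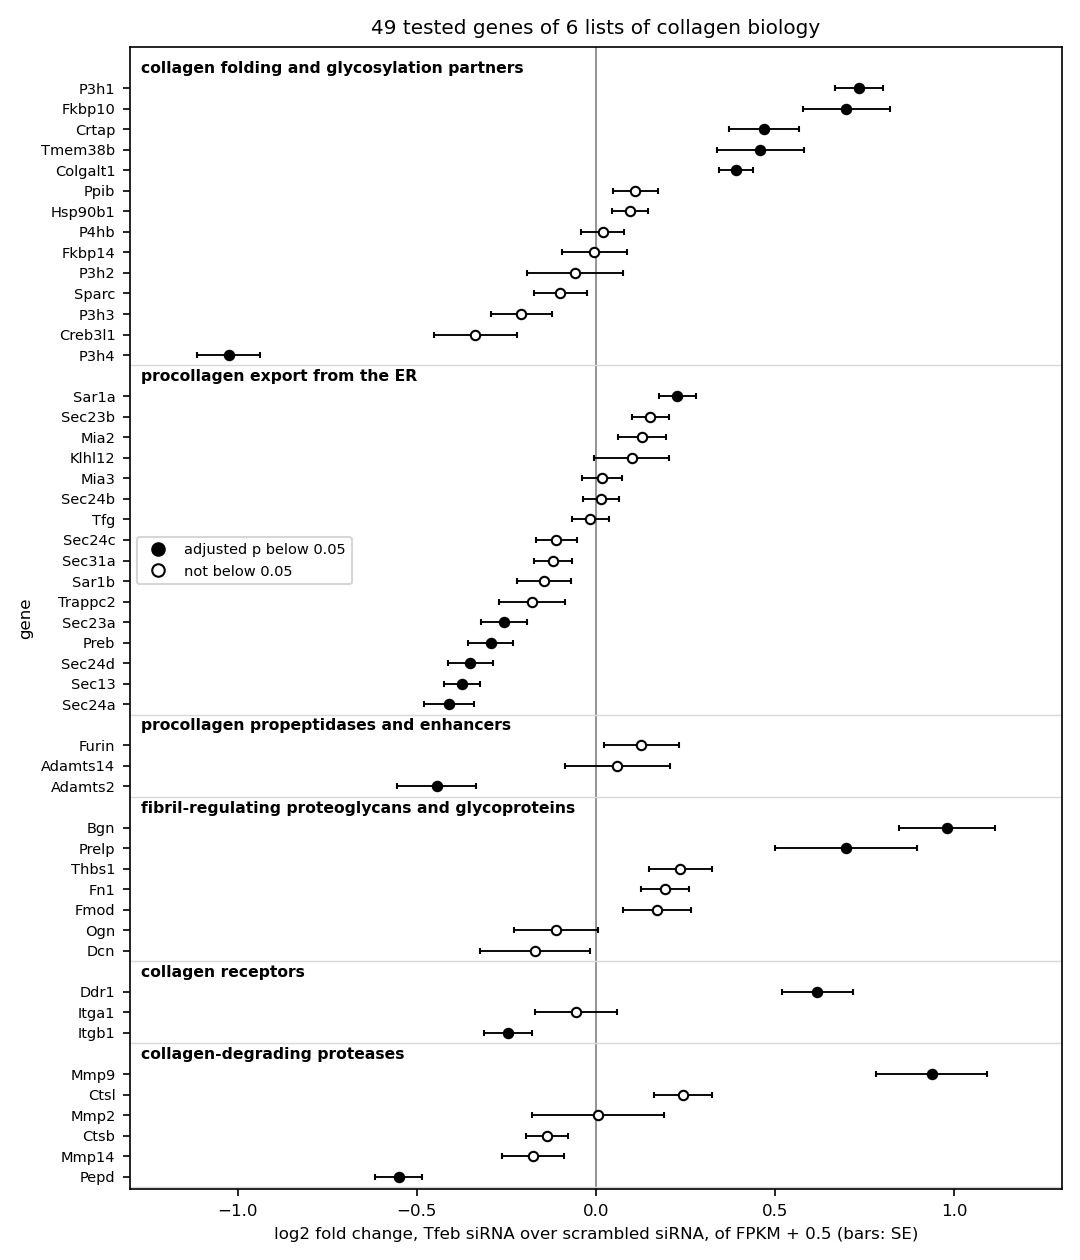
Log2 fold change of FPKM + 0.5, Tfeb siRNA over scrambled siRNA, for the 49 tested genes of the 6 lists, with the SE as bars and genes at an adjusted p below 0.05 filled. P3h4 lies lowest at -1.02 and Bgn highest at 0.98. Among the filled folding genes, 5 lie to the right and P3h4 to the left. Among the filled export genes, 5 lie to the left and Sar1a to the right. Of the folding genes 42.9% and of the export genes 37.5% were called, against 33.3% of all tested genes.

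The longest annotated 3' UTR of each tested gene was searched for 8 words of 7 bases that an earlier analysis had picked from the fold changes of these same libraries. The words CTACATA (overlapping the word TACATAA) and also GGCCATG (overlapping the word GCCATGA) were more frequent in genes that fell, here called falling words. The words TCGGAGA (overlapping the word CGGAGAA) and also TGTCACG (overlapping the word GTCACGA) were more frequent in genes that rose, here called rising words. Over all genes, a falling word was in 46.0% of the genes that fell, 25% of those that rose and 28.2% of those not called, a share that the choice of the words fixes. Of the 7 collagen-related genes that fell, only Col9a3 held a falling word, and of the 5 that rose, Loxl2 and Plod1 did. The sites are given with the word in capitals, since they lie in genes of both directions.
Col9a3: agagacttgttTACATAAcatttatataa
Loxl2: ctcgggcacatGGCCATGgaaacttgatg
Plod1: cccttcctgcaGCCATGAacatggaataa
Among the genes not called, P4ha1, Col18a1, Col8a1 and Col5a1 held a falling word, and none of the 25 held a rising word. Over all genes a rising word was in 15% of those that rose, 5.71% of those that fell and 6.40% of those not called. The letters describe these annotated UTRs and need not be in the transcripts of these cells.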

How the data were processed

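RNA-seq of 3 Tfeb siRNA and 3 scrambled siRNA libraries was used as the FPKM values the authors deposited, 1 column per library, per the file headers; 0 columns of other samples were present. Per the submitters' processing notes the genome was mm10. An aligner, a counter or a strand setting is not given in the sources used here. Multiplied by length, all values of a library were whole multiples of the same step (tolerance 1e-06), which gave derived reads, used for description; they cover counting error only. Genes averaging at least 1 FPKM were tested on log2(FPKM + 0.5), which understates changes of low genes, with limma 3.58.1 in R 4.3.3 (eBayes with trend, two-sided, Benjamini-Hochberg over all tested genes, called below 0.05). Ratios used an exact two-sided permutation test, 4 ratios in all, for which no adjustment could go below 0.1. Same-numbered libraries had residual correlations of 0.382, 0.129 and 0.166, all above 0.1, so the numbers were taken to pair them, from the data only, since the titles merely number the samples. Only number 1 stood clearly apart: Tfeb siRNA replicate 2 with scrambled replicate 3 gave 0.106, and Tfeb siRNA replicate 3 with scrambled replicate 2 gave 0.0996. The main limma fit and the permutation tests did not use this pairing. A replicate block was an alternative. Overlaps, shared words and UTRs came from GENCODE M21. Genes named with values were called members, the 6 most abundant, those next to the filter, and in each list up to 2 called genes in each direction; Crtap, Tmem38b, Colgalt1, Sec24d, Preb, Sec23a, Sec23b, Sec24b, Sec24c, Sec31a, P4hb, Mia3, the low chains and, with a range, interval or ratio, Plod2, Plod3, Loxl1, P4ha2, Col5a1, Col6a1 and Col12a1 were chosen after their values were seen. Fn1 and Thbs1 were also chosen after their values were seen. The gene set and the lists were chosen with earlier results of these data known. Alternatives were other pseudocounts (0.1, 1), filters, TPM, 75th percentile scaling, no trend, the block and leaving out libraries. Some podocyte markers are not reported here.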

Additional observations from a re-analysis of the deposited data

How the results depend on the processing

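Of the 12 called collagen-related genes, 8 kept their call in every alternative in which they were tested: Col1a1, Loxl2, Col7a1, Loxl3, Plod1, Lox, Loxl4 and Col16a1. The number that rose was 2 with a filter at a mean of 5 FPKM, which leaves out Col1a1, Col7a1 and Loxl3, and 5 or 6 under every other alternative. The number that fell was 4 with that filter, 3 to 5 leaving out 1 library, and 4 without replicate 1 of both groups, an alternative chosen after seeing the data. Without a filter it was 7, of which 4 were shared with the 7 called with the filter. The replicate block added Serpinh1 and changed no other call of the 25 genes; among the list genes it called 12 higher and 12 lower, in place of 10 and 9. Genes that were not called changed sign: with TPM, Col6a1 at -0.0126, Col5a2 at -0.0112 and Plod3 at -0.0090 (log2). Plod3 was at -0.0127 without replicate 1 of both groups. Leaving out 1 library gave Loxl1 -0.1193 to 0.0749, Col12a1 -0.0101 to 0.0529, Col6a1 -0.0937 to 0.1298, Col5a2 -0.0174 to 0.0522, Plod3 -0.0167 to 0.0558 and Pcolce -0.0050 to 0.0800. The cause was not tested. The Col5a1 to Col5a2 ratio difference ran from -0.0248 to 0.0979 on the log2 scale leaving out 1 library. With 3 libraries a group, changes of low genes, such as Col9a3, rest on few reads.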
